A study of Homo sapiens with 12 samples.

Results

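The 32 genes described here encode the enzymes and regulators of cholesterol and fatty acid synthesis that are controlled by the sterol regulatory element-binding proteins (SREBPs). They were chosen by symbol from 43236 gene symbols, and all 32 were expressed above the filter that kept 15979 genes for testing. They fall into 5 regulators, a sterol branch of 19 genes and a fatty acid branch of 8 genes. The cells were MNNG/HOS, a human osteosarcoma line labelled HOS-MNNG, a chemically transformed derivative of HOS. The groups were DMSO for 6 h, NXP800 for 6 h, DMSO for 24 h and NXP800 for 24 h, with 3 libraries each and 12 in all. DMSO is the solvent and served as the control, and NXP800 is a small molecule that was given at 300 nM. All groups come from this single line, and the labels do not say whether replicates were separate cultures, so p-values measure the spread between these libraries.

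SREBPs are transcription factors held as precursors in the membrane of the endoplasmic reticulum. When membrane sterols are low, the escort protein SCAP carries them to the Golgi, where proteases release the active factor, and when sterols are high, INSIG proteins retain SCAP in the endoplasmic reticulum. SREBP2 acts mainly on genes of cholesterol synthesis and SREBP1 mainly on genes of fatty acid synthesis. The active factor binds the sterol regulatory element, often with the factor NF-Y bound at a CCAAT box close by.

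The promoter stretches printed here show where the letters of the sterol regulatory element core or of an E-box, a second kind of site that SREBPs can bind, occur before RefSeq starts of members of the set. RefSeq promoter entries of GRCh38.p14 matched 28 of the 32 genes, with 40 entries in all, and the 250 bases before the start of each entry were searched on both strands. The core TCACNCCA was found before MSMO1, MVK and SREBF2, in 7.5% of the members' 40 entries and 3.2% of all 35116 promoter entries. The E-box CACGTG was found before INSIG1, SC5D and SCAP, in 10% of the members' entries and 6.34% of all. The box CCAAT occurred before 19 of the 28 genes, in 57.5% of the members' entries and 32% of all. The motif TGATGNAA, a site of C/EBP-ATF factors, was found before 0 of the 28 genes and in 3.14% of all entries. In the 30 bases printed for each gene, on the strand of the gene, capitals mark the match to the core in the first 3 lines and to the E-box in the last 3. They lie at chr4:165327502-165327531 on the plus strand for MSMO1, chr12:109573588-109573617 plus for MVK, chr22:41832961-41832990 plus for SREBF2, chr7:155297811-155297840 plus for INSIG1, chr11:121292628-121292657 plus for SC5D and chr3:47475982-47476011 minus for SCAP.
MSMO1: tctcactatccTCACTCCAtccgcggagcc
MVK: gttcgcagttcTCACCCCAgggcgggacac
SREBF2: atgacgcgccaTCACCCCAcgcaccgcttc
INSIG1: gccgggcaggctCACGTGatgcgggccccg
SC5D: gcgcgcggcgccCACGTGaccgcggagagc
SCAP: cgccgctgggcgCACGTGcggagggcggcg
A match is a description of these letters and not evidence of binding. The match began 156 bases before the start of the entry for MSMO1, 195 before that for MVK and 133 before that for SREBF2. The stretches of MVK and SCAP lie inside the RefSeq spans of these genes, chr12:109573272-109598125 and chr3:47413681-47477127. Their entries thus have a start further inside the gene. The 250 bases before SREBF2 lie wholly within exons that GENCODE annotates for some gene, against 2 of the 250 before MSMO1.

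Each library held between 30810614 and 31947656 gene counts. Read pairs on no annotated gene were 6.66 to 8.14% in the 6 h libraries and 2.73 to 3.67% in the 24 h libraries, so the sets of libraries of the 2 times differed, and time and library set cannot be told apart. Markers of the osteoblast lineage were present in part: RUNX2 stood between 20.7 and 42.5 CPM, the unit of counts scaled to library size, and COL1A1 between 143 and 566 CPM, while SP7, ALPL, COL1A2, BGLAP and IBSP were below 1 CPM in every library. The summed level of the 10 osteoblast markers was 799 to 990 CPM with DMSO and 551 to 645 CPM with NXP800 at 6 h, and 935 to 1120 against 423 to 493 CPM at 24 h. Members of this list went in both directions, since SPARC had -0.79 on the log2 scale at 6 h and -2.02 at 24 h, and COL1A1 -0.50 and -0.76, while RUNX2 rose by 0.71 (edgeR adjusted p = 4.08e-05) and 0.36 (edgeR adjusted p = 0.00879). Of 10 markers of other cell types, 7 (PTPRC, CD3E, PECAM1, CDH5, ALB, DES and MYOD1) were below 1 CPM in every library, and the other 3 were CD68, EPCAM and KRT18. The sum of this list, most of it KRT18, was 745 to 864 CPM with DMSO and 688 to 771 with NXP800 at 6 h, and 949 to 997 against 711 to 881 CPM at 24 h. At 24 h KRT18 had a log2 fold change of -0.43 (edgeR adjusted p = 0.000423), while CD68 and EPCAM rose by 0.90 (edgeR adjusted p = 1.07e-05) and 0.81 (edgeR adjusted p = 4.85e-06), each with every NXP800 library higher. The part of these markers in the results that follow was not tested.

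Against DMSO of the same time, NXP800 lowered most of the 32 genes, more of them and more deeply at 24 h than at 6 h. The DMSO mean was itself higher at 24 h than at 6 h for all 32 (median ratio 1.45). A deeper fall is therefore not always a lower level with NXP800. From 6 h to 24 h the NXP800 mean went from 449 to 637 CPM for FASN and from 88.9 to 52.5 CPM for ACAT2. At 6 h, 20 fell, 1 rose (STARD4) and 11 did not pass the test. At 24 h, 28 fell, 0 rose, and INSIG2, PMVK, TM7SF2 and STARD4 did not pass, at adjusted p below 0.05 in the quasi-likelihood test of edgeR (Benjamini-Hochberg adjustment over all tested genes). The number of members higher at 24 h was also 0 at an unadjusted p below 0.05 and by the Wald test of DESeq2. The background was wide, since 27.8% of all tested genes fell and 25.0% rose at 6 h, and 28.6% fell and 27.5% rose at 24 h. The 32 genes had a median log2 fold change of -0.38 (6 h) and -0.81 (24 h), beside -0.046 and -0.003 over all tested genes. A fall of more than 2-fold that passed the test was seen for 0 members at 6 h, where 5.23% of all tested genes showed one, and for 14 at 24 h, where 7.32% did. Every NXP800 library lay below every DMSO library for 24 members at 6 h, against 32.7% of all tested genes, and for 26 at 24 h, against 30.1%. The opposite, every NXP800 library above every DMSO library, held for 1 member at 6 h and 0 at 24 h, where 29.0% of all tested genes showed it. A total of 19 members fell at both times, as 18.5% of all tested genes did. Counts measure each gene's share of a library, so fewer cells with a transcript and less of it per cell cannot be told apart.

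**Figure D1:**
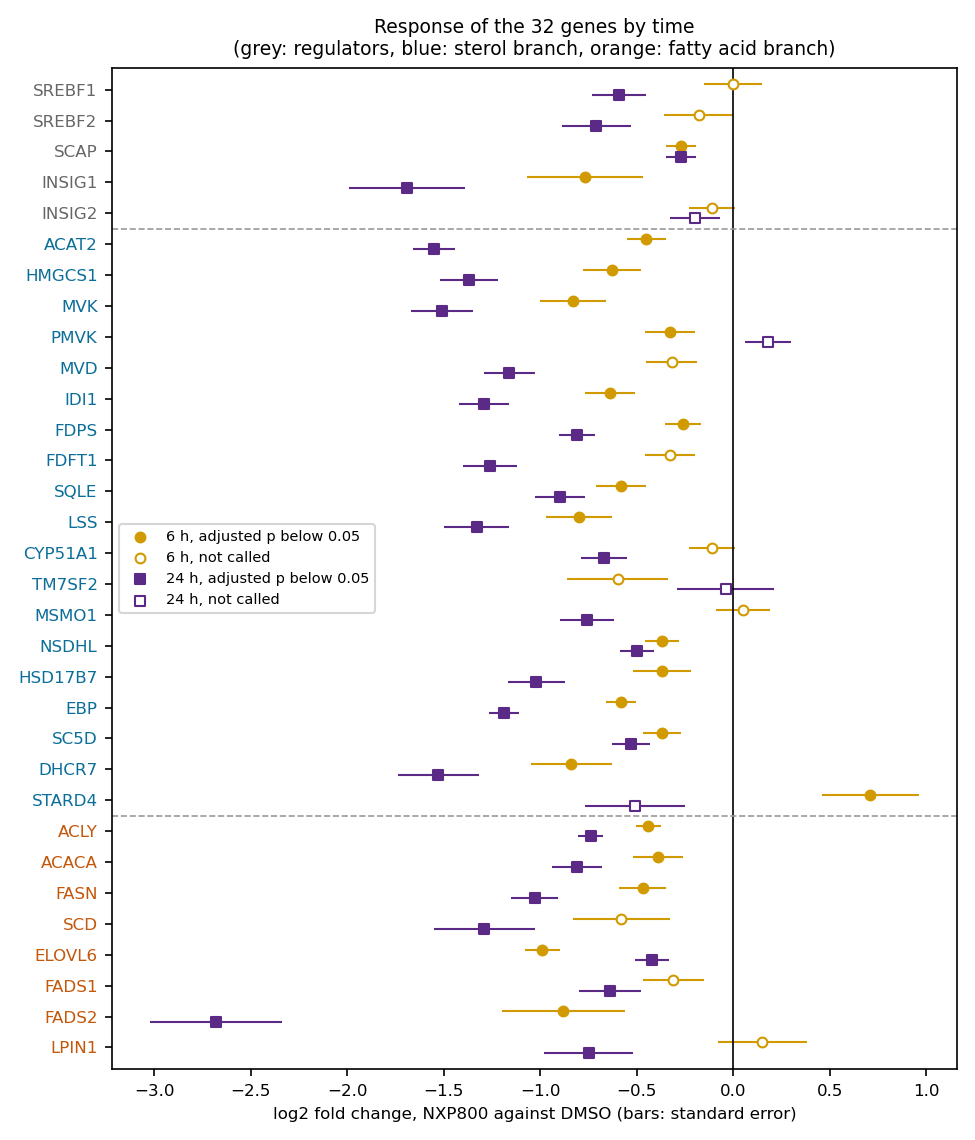
Log2 fold change of NXP800 against DMSO (x axis) for the 32 genes (y axis) at 6 h (circles) and 24 h (squares), with standard errors. Filled symbols passed the test; 28 of the 24 h squares are filled and lie left of 0, and STARD4 is the filled 6 h circle to the right.

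Same-numbered DMSO and NXP800 libraries of a time deviated together, and a fit with the replicate number as a block within each time called 25 members lower and 1 higher at 6 h and 29 lower and 1 higher at 24 h. The share of all tested genes called lower in that fit was 33.4% at 6 h and 33.1% at 24 h, and the share called higher was 28.9% and 32%. The 6 h falls of INSIG1, PMVK, FDPS, HSD17B7, ACACA and FADS2 passed in it too (edgeR adjusted p at most 0.00487). Without the block these calls depended on single libraries, as given below. Single libraries were left out only in fits without the block.

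The genes of the regulators responded unevenly. SREBF1, the gene of SREBP1, stood at 96.9, 113 and 95.0 CPM with DMSO and 99.5, 113 and 92.9 CPM with NXP800 at 6 h, and at 217, 327 and 240 against 135, 195 and 189 CPM at 24 h. The 6 h libraries overlapped, with a log2 fold change of 0.00 (SE 0.15, edgeR adjusted p = 0.994), whereas at 24 h every NXP800 library was lower, with -0.59 (SE 0.14, edgeR adjusted p = 0.00222). SREBF2, the gene of SREBP2, moved from 134, 141 and 119 to 119, 128 and 101 CPM at 6 h, where the groups overlapped, and from 179, 230 and 242 to 82.0, 148 and 169 CPM at 24 h, where they did not. Its log2 fold change was -0.18 (SE 0.18, edgeR adjusted p = 0.437) and then -0.71 (SE 0.18, edgeR adjusted p = 0.00386). SCAP fell equally at both times, by 0.27 on the log2 scale (edgeR adjusted p = 0.00819 at 6 h and 0.00724 at 24 h). The 24 h call of SCAP was lost without NXP800 24 h replicate 2 (edgeR adjusted p = 0.0721). The 2 retention proteins differed in their values. INSIG1, which is itself an SREBP target, stood at 39.5, 55.0 and 35.1 CPM with DMSO and 24.1, 29.5 and 22.5 CPM with NXP800 at 6 h. At 24 h it stood at 57.6, 112 and 114 against 13.8, 33.7 and 40.1 CPM, again with no overlap. It fell by 0.77 on the log2 scale at 6 h (SE 0.30, edgeR adjusted p = 0.0409) and by 1.69 at 24 h (SE 0.30, edgeR adjusted p = 0.00015). In the fit without the block, the 6 h call of INSIG1 was lost without DMSO 6 h replicate 1 or 2 (edgeR adjusted p up to 0.178). It was also lost without NXP800 6 h replicate 1 or 3 or NXP800 24 h replicate 2. With the block and all libraries, its 6 h value was -0.76 (edgeR adjusted p = 2.07e-07). INSIG2, with a mean of 8.16 CPM in the DMSO libraries at 6 h, passed at neither time (-0.11 and -0.20, edgeR adjusted p = 0.497 and 0.184). By count, 2 of the 5 regulators fell at 6 h and 4 at 24 h.

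**Figure D2:**
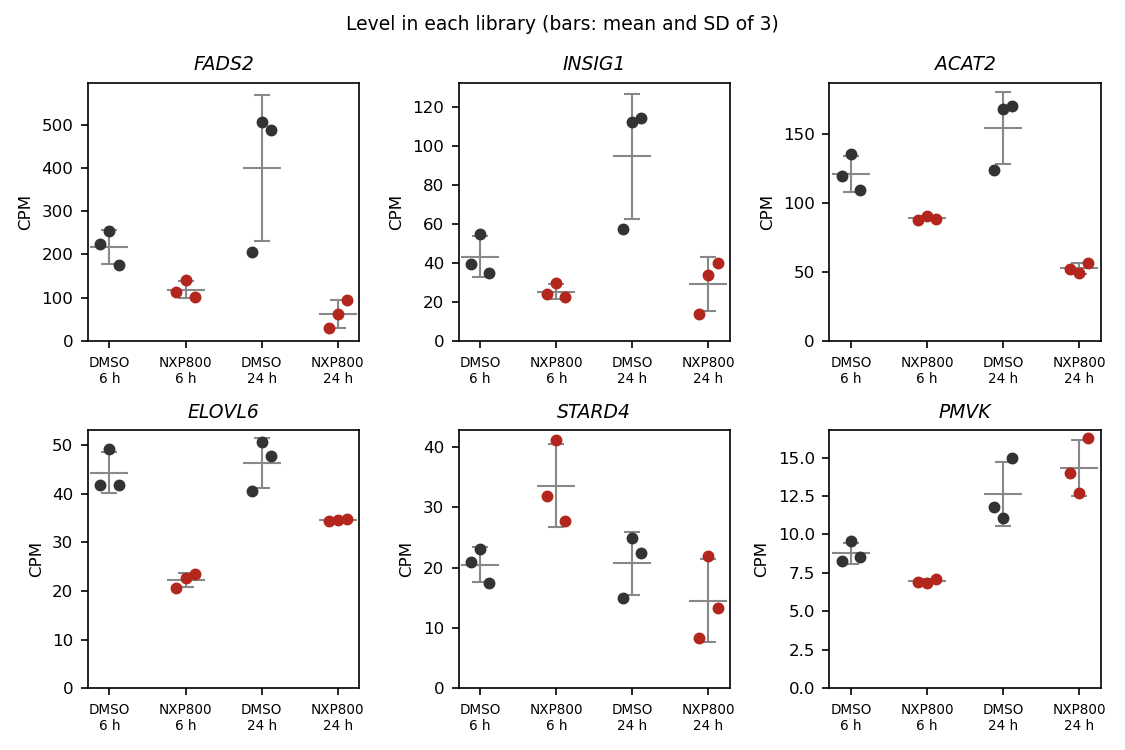
CPM (y axis, from 0) of 6 genes in each of the 12 libraries, as points, with mean and SD of the 3 libraries of a group. The points of FADS2, INSIG1, ACAT2 and ELOVL6 lie lower with NXP800 at both times, those of STARD4 lie higher at 6 h only, and those of PMVK lie lower at 6 h and overlap at 24 h.

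The mevalonate section of the sterol branch makes isoprenoid units from acetyl-CoA, and 6 of its 7 genes fell at each time. The median over the 7 genes was -0.45 on the log2 scale at 6 h, and -1.29 at 24 h. ACAT2, which joins 2 acetyl-CoA, stood at 119, 135 and 109 CPM with DMSO against 87.8, 90.5 and 88.5 with NXP800 at 6 h, and at 124, 168 and 170 against 52.2, 48.9 and 56.5 CPM at 24 h. The groups were apart at both times, and the log2 fold change went from -0.45 (SE 0.10, edgeR adjusted p = 0.00181) to -1.55 (SE 0.11, edgeR adjusted p = 5.46e-09). HMGCS1, cytosolic HMG-CoA synthase, stood at 78.5, 92.6 and 68.2 against 52.0, 54.4 and 48.5 CPM at 6 h, and at 71.7, 113 and 113 against 33.5, 42.8 and 38.7 CPM at 24 h. It fell by 0.63 (SE 0.15, edgeR adjusted p = 0.0018) and by 1.37 on the log2 scale (SE 0.15, edgeR adjusted p = 9.98e-07), with no overlap at either time. MVK, mevalonate kinase, was low, with 15.3, 16.6 and 11.8 against 8.32, 7.80 and 8.54 CPM at 6 h and 21.4, 30.2 and 30.5 against 7.46, 9.47 and 11.8 CPM at 24 h. Its log2 fold changes were -0.83 (SE 0.17, edgeR adjusted p = 0.000599) and -1.51 (SE 0.16, edgeR adjusted p = 9.82e-07). The isomerase gene IDI1 fell by 0.64 and 1.29 on the log2 scale, and the farnesyl diphosphate synthase gene FDPS by 0.26 and 0.81. The call of FDPS at 6 h was lost without DMSO replicate 2, NXP800 replicate 1 or NXP800 replicate 2 of that time (edgeR adjusted p up to 0.10). MVD, mevalonate diphosphate decarboxylase, had -0.32 at 6 h, which passed with the block and not without it (edgeR adjusted p = 0.0514 without it and 0.000354 with it), and -1.16 at 24 h (edgeR adjusted p = 1.59e-06).

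PMVK, phosphomevalonate kinase, was the exception of this section at 24 h. It stood at 8.27, 9.55 and 8.51 CPM with DMSO against 6.94, 6.85 and 7.12 with NXP800 at 6 h, and at 11.8, 11.1 and 15.0 against 14, 12.7 and 16.3 CPM at 24 h. The 6 h groups were apart and the 24 h groups overlapped, with log2 fold changes of -0.33 (SE 0.13, edgeR adjusted p = 0.0385) and 0.18 (SE 0.12, edgeR adjusted p = 0.212). With the block, the 24 h value of 0.18 passed the test (edgeR adjusted p = 0.0454). The 6 h call was lost without DMSO replicate 2 or 3 or without any of the 3 NXP800 libraries of that time (edgeR adjusted p up to 0.143), and without DMSO 24 h replicate 3 the 24 h value was 0.32 (edgeR adjusted p = 0.0357).

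Of the 11 genes that make squalene and turn it into cholesterol, 7 fell at 6 h and 10 at 24 h, and their medians were -0.37 and then -0.90 on the log2 scale. FDFT1, squalene synthase, stood at 177, 204 and 149 CPM with DMSO against 142, 148 and 132 with NXP800 at 6 h, and at 198, 277 and 286 against 90.3, 105 and 122 CPM at 24 h. Its NXP800 libraries were the lower ones at both times. The 6 h value, -0.33 on the log2 scale, passed with the block and not without it (edgeR adjusted p = 0.051 without it and 0.000125 with it), and the 24 h value was -1.26 (SE 0.14, edgeR adjusted p = 1e-06). SQLE, squalene epoxidase, fell by 0.58 and 0.90 on the log2 scale and LSS, lanosterol synthase, by 0.80 and 1.33. DHCR7, which makes cholesterol from 7-dehydrocholesterol, stood at 70.5, 76.0 and 58.3 against 39.1, 43.5 and 31.8 CPM at 6 h and at 96.8, 151 and 170 against 32.5, 47.2 and 64.7 CPM at 24 h. Its log2 fold changes were -0.84 (SE 0.21, edgeR adjusted p = 0.00354) and -1.53 (SE 0.21, edgeR adjusted p = 1.4e-05), and the groups did not overlap. EBP, a sterol isomerase, stood at 67.9, 73.1 and 64.5 against 45.3, 46.3 and 46.1 CPM at 6 h and at 130, 161 and 153 against 67.6, 61.1 and 65.9 CPM at 24 h. The groups of EBP were apart, the spread was small, and the log2 fold changes were -0.58 (SE 0.078, edgeR adjusted p = 1.3e-05) and -1.19 (SE 0.077, edgeR adjusted p = 3.05e-09).

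Without the block, the other genes of this section passed at both times, only at 24 h or at neither time. NSDHL and SC5D, which act on intermediate sterols, each fell by 0.37 on the log2 scale at 6 h, and by 0.50 and 0.53 at 24 h. HSD17B7, a sterol reductase gene, had -0.37 at 6 h (edgeR adjusted p = 0.047) and -1.02 at 24 h (edgeR adjusted p = 2.52e-05). Its 6 h call was lost when any of 8 libraries was left out, all but DMSO 6 h replicate 3, DMSO 24 h replicates 1 and 3 and NXP800 24 h replicate 3 (edgeR adjusted p up to 0.168). CYP51A1, lanosterol demethylase, and MSMO1, a methylsterol oxidase, did not pass at 6 h, with -0.11 and 0.05, and fell at 24 h by 0.67 and 0.76 on the log2 scale (edgeR adjusted p = 0.000199 and 0.000234). MSMO1 stood at 33.2, 36.4 and 29.8 against 33.2, 37.2 and 32.2 CPM at 6 h and at 33.1, 50 and 52.7 against 22.9, 27.7 and 29.5 CPM at 24 h. Its 6 h libraries overlapped and its 24 h libraries did not. TM7SF2, a sterol reductase gene, was the lowest member, at no more than 2.99 CPM in any library, with -0.60 at 6 h (edgeR adjusted p = 0.0661, and 0.0143 with the block) and -0.04 at 24 h, a value whose sign depended on the scaling (0.05 with library size only).

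STARD4, which carries cholesterol through the cytosol, was the single member that rose. It stood at 21.0, 23.1 and 17.4 CPM with DMSO against 31.9, 41.1 and 27.7 with NXP800 at 6 h, with every NXP800 library higher, as for 29.3% of all tested genes, and at 14.9, 24.9 and 22.4 against 8.42, 21.9 and 13.3 CPM at 24 h, where the groups overlapped. On the log2 scale the change was 0.71 at 6 h (SE 0.25, edgeR adjusted p = 0.0231, and 2.18e-06 with the block) and -0.51 at 24 h (SE 0.26, edgeR adjusted p = 0.102, and 8.31e-05 with the block). The rise was not called without DMSO 6 h replicate 1 or 3 or NXP800 6 h replicate 2 (edgeR adjusted p up to 0.111), nor by DESeq2 (adjusted p = 0.0703). The 24 h fall passed without DMSO 24 h replicate 1 (-0.70, edgeR adjusted p = 0.0308) or NXP800 24 h replicate 2 (-0.90, edgeR adjusted p = 0.00402).

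In the fatty acid branch, 5 of 8 genes fell at 6 h and all 8 at 24 h. FADS2, the delta6 desaturase of long-chain fatty acids, had the largest fall of the 32 genes at 24 h. It stood at 224, 254 and 176 CPM with DMSO against 114, 140 and 101 with NXP800 at 6 h, and at 205, 507 and 488 against 29.9, 62.7 and 94.1 CPM at 24 h. The groups were apart at both times, although DMSO 24 h replicate 1 lay well below its partners. On the log2 scale the change was -0.88 at 6 h (SE 0.32, edgeR adjusted p = 0.0308) and -2.68 at 24 h (SE 0.34, edgeR adjusted p = 5.8e-06), a mean CPM lower by 84.4%. The 6 h call of FADS2 was lost without DMSO replicate 1 or 2 or NXP800 replicate 1 or 3 of that time (edgeR adjusted p up to 0.10), and the 24 h value without DMSO 24 h replicate 1 was -3.0 (edgeR adjusted p = 3.19e-07). FADS1, the neighbouring delta5 desaturase gene, moved less, by -0.31 at 6 h (edgeR adjusted p = 0.122, and 5.38e-05 with the block) and -0.64 at 24 h (edgeR adjusted p = 0.00317), and its 24 h groups overlapped.

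Of the fatty acid synthesis genes, SCD, FASN and ACLY were the most abundant members per length of exon, counting all annotated exons of a gene. Per kilobase of exon, the DMSO libraries at 6 h held 156 ± 27.4 CPM of SCD (SD, n = 3), 66.7 ± 7.62 of FASN and 63.6 ± 1.08 of ACLY, and the last 2 did not differ beyond their spread. The lowest were MVK, at 1.62 ± 0.272, and TM7SF2, at 0.658 ± 0.0953 CPM per kilobase. MVK has 9018 exon bases by this count, and before scaling to length its mean (14.6 CPM) was above that of PMVK (8.78 CPM). SCD, stearoyl-CoA desaturase, stood at 876, 921 and 653 CPM with DMSO against 559, 608 and 471 with NXP800 at 6 h and at 957, 1700 and 1690 against 320, 682 and 776 CPM at 24 h. The groups did not overlap, but the spread was wide, and the change was -0.58 on the log2 scale at 6 h (SE 0.25, edgeR adjusted p = 0.0663, and 9.24e-07 with the block) and -1.29 at 24 h (SE 0.26, edgeR adjusted p = 0.000468). FASN, fatty acid synthase, stood at 624, 550 and 692 against 453, 462 and 433 CPM at 6 h and at 1000, 1490 and 1400 against 591, 614 and 707 CPM at 24 h. FASN fell by 0.47 (SE 0.12, edgeR adjusted p = 0.00397) and by 1.03 on the log2 scale (SE 0.12, edgeR adjusted p = 2.75e-06), with every NXP800 library lower. ACLY, which supplies cytosolic acetyl-CoA from citrate, fell by 0.44 and 0.74, and ACACA, acetyl-CoA carboxylase, by 0.39 and 0.81. The 6 h call of ACACA was lost without DMSO replicate 1 or 2 or NXP800 replicate 1 or 3 of that time (edgeR adjusted p up to 0.076).

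ELOVL6, the elongase that extends palmitate, had the largest fall of the 32 genes at 6 h and a smaller one at 24 h. It stood at 41.8, 49.2 and 41.9 CPM with DMSO against 20.7, 22.6 and 23.5 with NXP800 at 6 h, and at 40.5, 50.6 and 47.8 against 34.3, 34.7 and 34.8 CPM at 24 h. Every NXP800 library was lower at both times, with log2 fold changes of -0.99 (SE 0.09, edgeR adjusted p = 1.9e-07) and -0.42 (SE 0.088, edgeR adjusted p = 0.000737). LPIN1, a phosphatidate phosphatase of glycerolipid synthesis, had 0.15 at 6 h (edgeR adjusted p = 0.62) and -0.75 at 24 h (edgeR adjusted p = 0.0105), with overlapping groups at both times, and the 24 h call was lost without DMSO 24 h replicate 2 (edgeR adjusted p = 0.0629).

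The 2 branches were compared by counts and medians, without a test, since genes are not replicates. At 6 h, 13 of the 19 sterol genes and 5 of the 8 fatty acid genes fell, with median log2 fold changes of -0.37 and -0.45. At 24 h, 16 of 19 and 8 of 8 fell, with medians of -1.02 and -0.78. Falls over 2-fold at 24 h numbered 10 of 19 in the sterol branch and 3 of 8 in the fatty acid branch, with 1 of the 5 regulators. For the replicate pairs taken one by one, the median of the sterol branch was -0.47, -0.46 and -0.30 at 6 h and -0.82, -1.29 and -1.09 at 24 h, and that of the fatty acid branch -0.48, -0.38 and -0.46 and then -0.81, -0.79 and -0.80. The ranges of the pairs overlapped between the branches at 6 h, and at 24 h the sterol median was the deeper in all 3 pairs, by little in pair 1. The order of the branches at 24 h turned when the mean over genes was taken, which was -0.94 for the sterol branch and -1.04 for the fatty acid branch (-0.81 without FADS2). At 24 h the median moved with the library left out, between -1.20 and -0.88 for the sterol branch and between -0.95 and -0.69 for the fatty acid branch.

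**Figure D3:**
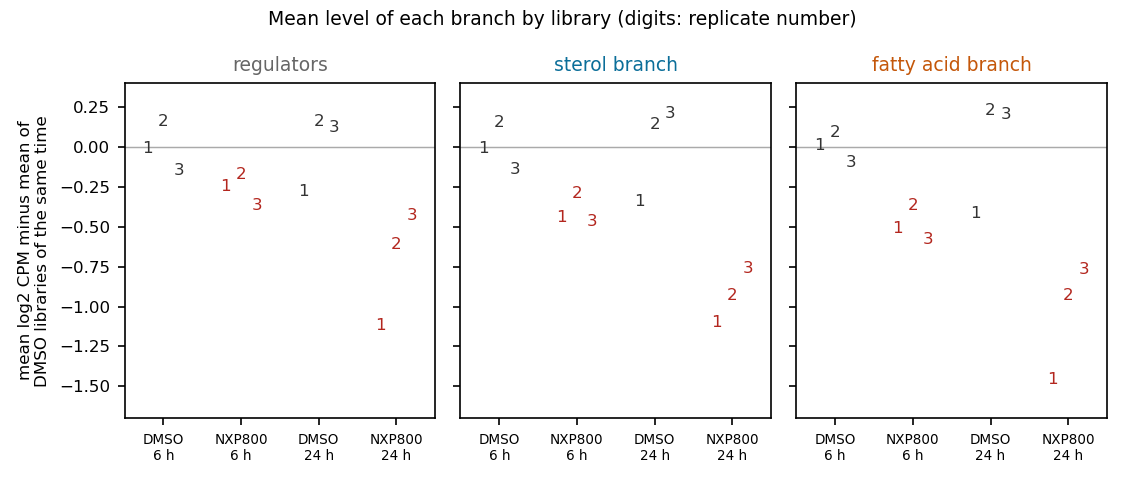
Mean log2 CPM of the genes of each branch in each library, relative to the mean of the DMSO libraries of the same time (y axis), with the replicate number as the symbol. In the regulators and in both branches every NXP800 library lies below every DMSO library of its time, by little for the regulators at 6 h (-0.17 against -0.15). In the sterol and fatty acid branches DMSO 24 h replicate 1 lies 0.34 and 0.42 below the DMSO mean.

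The members varied together between libraries of a group. DMSO 24 h replicate 1 was the lowest library of its group for 30 of the 32 genes, NXP800 24 h replicate 1 for 23, and DMSO 6 h replicate 2 was the highest for 29. The mean of the fatty acid branch in NXP800 24 h replicate 1 was 1.46 below the DMSO mean on the log2 scale, against 0.93 and 0.77 in replicates 2 and 3. Without DMSO 24 h replicate 1, the log2 fold change of INSIG1 at 24 h was -1.95 (edgeR adjusted p = 1.93e-05) and that of SREBF2 was -0.83 (edgeR adjusted p = 0.00175). Without NXP800 24 h replicate 1, the value was -1.36 for INSIG1 (edgeR adjusted p = 0.000274), -0.45 for SREBF2 (edgeR adjusted p = 0.00605) and -0.47 for LPIN1 (edgeR adjusted p = 0.0403), and 28 members were called at 24 h, all lower. All 32 genes had a higher mean CPM in the DMSO libraries at 24 h than in those at 6 h, with a median ratio of 1.45 and values such as 2.57 for SREBF1, 2.09 for FASN and 1.01 for STARD4, a comparison that time shares with the set of libraries and that was not tested.

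**Figure D4:**
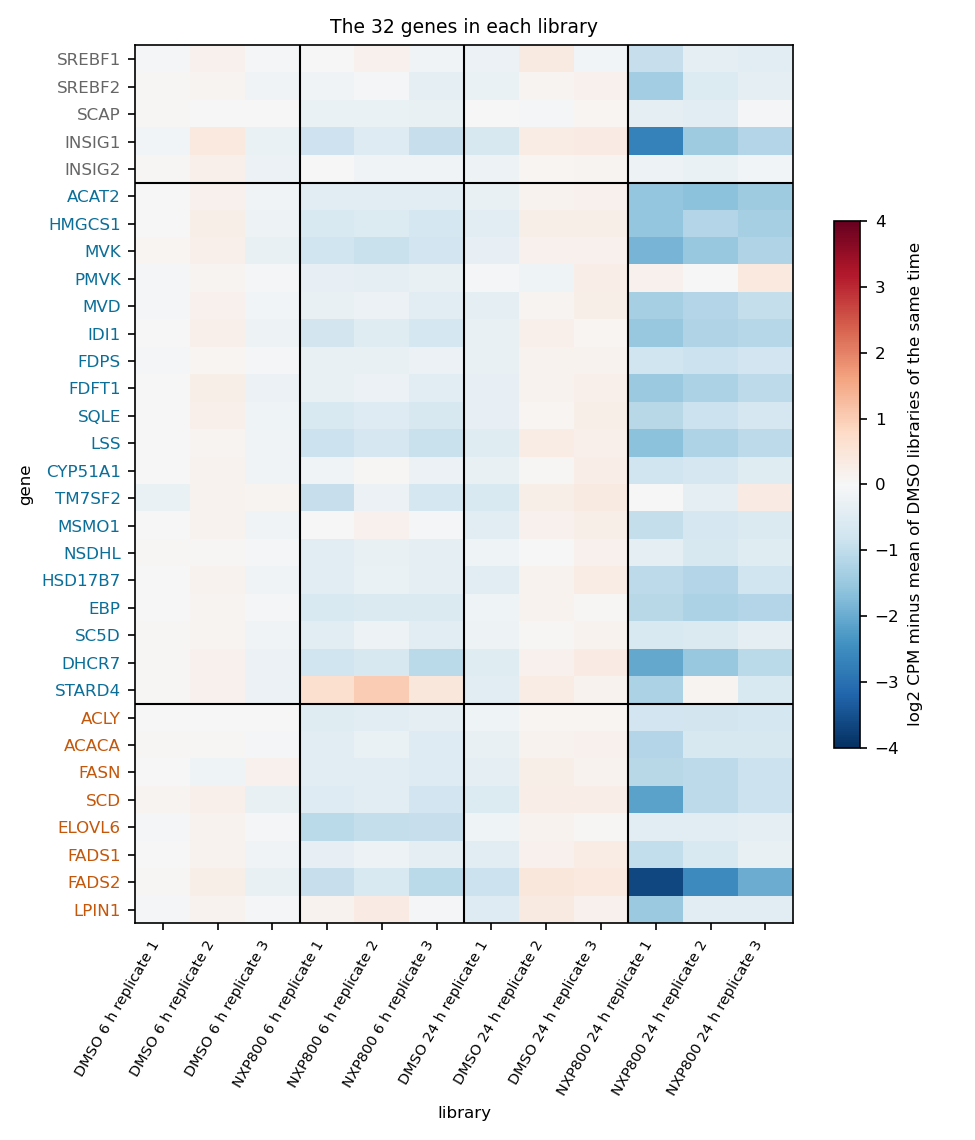
Log2 CPM of the 32 genes (y axis) in the 12 libraries (x axis), relative to the mean of the DMSO libraries of the same time, with blue for lower and red for higher values. The NXP800 24 h columns are the bluest, FADS2 and INSIG1 in replicate 1 most of all, and STARD4 is red in the NXP800 6 h columns.

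Whether a response differed between the times was tested directly, by subtracting the 6 h response from the 24 h response. It passed for 18 members, 16 with a negative and 2 with a positive difference, where 13.8% of all tested genes had a negative and 12% a positive one. Of the 32 genes, 28 had a lower log2 fold change at 24 h than at 6 h, and the median difference was -0.58 on the log2 scale, beside -0.002 over all tested genes. Both responses are relative to DMSO, whose mean was higher at 24 h for all 32 genes. In the mevalonate section, each of the 7 genes passed with all libraries in the fit, among them ACAT2 with -1.10 (SE 0.15, edgeR adjusted p = 5.95e-05) and MVD with -0.84 (SE 0.19, edgeR adjusted p = 0.00349), and only PMVK had a positive difference (0.51, SE 0.18, edgeR adjusted p = 0.0412). The call of PMVK was lost when any of 10 libraries was left out, all but DMSO 24 h replicate 3 and NXP800 24 h replicate 2 (edgeR adjusted p up to 0.104), and that of MVK (-0.69) when any of 9 was, all but DMSO 6 h replicate 2, DMSO 24 h replicate 1 and NXP800 24 h replicate 3 (edgeR adjusted p up to 0.0946). In the rest of the sterol branch, FDFT1 had -0.93 (SE 0.19, edgeR adjusted p = 0.00207) and STARD4 -1.22 (SE 0.36, edgeR adjusted p = 0.0191), which did not pass without NXP800 6 h replicate 2 or DMSO 24 h replicate 2 (edgeR adjusted p up to 0.054). In the fatty acid branch, FADS2 had -1.80 (SE 0.46, edgeR adjusted p = 0.009) and ELOVL6 0.57 (SE 0.13, edgeR adjusted p = 0.00354). The count was 11 without NXP800 6 h replicate 2 and 11 without DMSO 24 h replicate 2. With the block, 25 members had a negative and 2 a positive difference, where 20.9% of all tested genes had a negative and 18.4% a positive one. The members that passed with the block and not without it were SREBF2 (-0.57), INSIG1 (-0.99), SQLE (-0.31), LSS (-0.51), DHCR7 (-0.71), ACACA (-0.42), SCD (-0.77), FADS1 (-0.33) and LPIN1 (-0.91). The largest of their adjusted p-values with the block was 0.00361, for SQLE (edgeR).

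**Figure D5:**
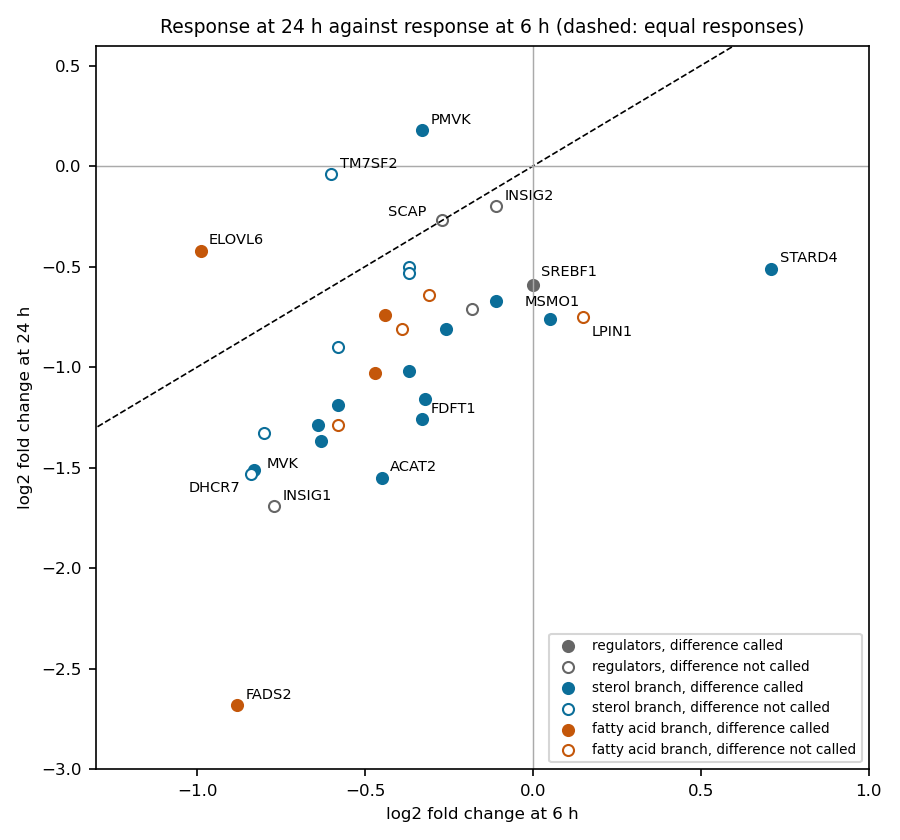
Log2 fold change at 24 h (y axis) against that at 6 h (x axis) for the 32 genes, coloured by branch and filled where the difference of the responses passed the test, with a dashed line at equal responses. Most points lie below the line, FADS2 and STARD4 farthest, and ELOVL6 and PMVK are the filled points above it.

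Genes near the set in the same pathways moved in both directions. Of 25 tested other sterol genes (26 listed), 12 fell and 6 rose at each time, with medians of -0.12 and -0.21. Of all tested genes, 27.8% fell and 25.0% rose at 6 h, and 28.6% fell and 27.5% rose at 24 h, so the rises were near the background share. The sterol reductase gene LBR fell by 0.59 at 6 h and 1.06 at 24 h on the log2 scale, and TMEM97 by 1.11 and 1.0. NR1H3, the gene of the sterol receptor LXR alpha, fell by 0.84 and 1.22. The genes that rose most carry sterols out of cells or out of lysosomes. ABCG1, an exporter, went from 9.60, 10.6 and 7.26 to 30.6, 37.6 and 29.8 CPM at 6 h and from 14.7, 16.5 and 14.5 to 98.3, 113 and 91.7 CPM at 24 h. With no overlap at either time, it rose by 1.84 and 2.73 on the log2 scale (edgeR adjusted p = 9.8e-09 and 9.13e-11). The exporter ABCA1 rose by 1.58 and 0.96 and the lysosomal transporter NPC1 by 1.21 and 0.93 on the log2 scale (edgeR adjusted p at most 0.00462). Other genes of sterol handling in this list fell. At 6 h and 24 h NPC2 fell by 0.29 and 0.69, LIPA by 0.60 and 0.91 and SCARB1 by 0.61 and 0.56 on the log2 scale (edgeR adjusted p at most 0.0185).

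Of 30 tested other fatty acid and glycerolipid genes (33 listed), 14 fell and 4 rose at 6 h, and 15 fell and 6 rose at 24 h, with medians of -0.11 and -0.24. The falls that were largest were those of SCD5, a second stearoyl-CoA desaturase, with log2 fold changes of -1.45 and -0.92, and at 24 h of the mitochondrial citrate carrier SLC25A1, with -1.53, and of the acetyl-CoA synthetase ACSS2, with -1.15. At 6 h SLC25A1 and ACSS2 each had -0.51. AGPAT2 and MLX fell at 6 h by 0.60 and 0.57, and at 24 h MLX had -0.52 while AGPAT2 did not pass (-0.15). The rises included MID1IP1, whose product promotes acetyl-CoA carboxylase activity, by 0.72 and 0.78, LPIN2 by 0.75 and 0.53, and ACSL1 by 0.71 and 0.64. FADS3 and DGAT2 rose at 24 h, each by 0.82, and did not pass at 6 h (0.28 and 0.48). Of 22 tested fatty acid oxidation genes (23 listed), 9 fell and 1 rose at 6 h, and 15 fell and 2 rose at 24 h, with medians of -0.18 and -0.37. PPARGC1A, a coactivator of mitochondrial genes, fell by 1.41 and 1.31, HADH by 0.75 and 1.29, CPT1A, the carnitine transferase of mitochondrial entry, by 0.71 at 6 h, and ETFDH by 0.98 at 24 h. CPT1A did not pass at 24 h (-0.01), nor ETFDH at 6 h (0.1). ECI1 rose by 0.31 and 0.77 and PPARA by 0.59 at 24 h, while PPARA did not pass at 6 h (-0.33). The lists of synthesis and of oxidation both held more falls than rises at each time, where 27.8% and 28.6% of all tested genes fell and 25.0% and 27.5% rose.

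Some members share exon sequence with other genes on the opposite strand, where the strand setting of the counting decides which gene a read belongs to. By GENCODE models, 37.7% of the exon bases of HMGCS1, 22.2% of those of ACAT2 (with TCP1), 18.6% of those of FDPS (with RUSC1-AS1) and 15.0% of those of IDI1 (with IDI2-AS1) were overlapped by exons of another gene. For the rest of the 32 genes the share was 9.08% or less.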

How the data were processed

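Strand-specific mRNA libraries of 12 MNNG/HOS samples were analysed. The authors used fastp 0.20.1 for trimming, STAR 2.7.5a for alignment to hg38 and HTSeq 0.12.4 for counting on the RefSeq annotation of GRCh38.p14. They deposited whole-number counts for each gene without normalization, and the strand setting and overlap mode are not given in the sources used here. The dose is stated in the methods and not in the labels. The 5 summary entries of the counter entered neither library sizes nor tests. Among them, reads outside annotated genes made up 2.73 to 8.14% of a library, and reads aligned to several places 1.86 to 3.37%.

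In R 4.3.3, edgeR 4.0.16 (filterByExpr, TMM scaling, quasi-likelihood test) fitted the 4 groups in one model of 15979 genes, with a common dispersion of 0.007231. P-values were adjusted by the Benjamini-Hochberg method over all tested genes, and calls are at 0.05. CPM values are scaled by TMM. Per-kilobase levels use the exon length of GENCODE genes. For genes with many counts, the spread between replicates limits precision more than counting error does. This need not hold for genes with few counts, such as TM7SF2, with 38 to 92 in a library.

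The members and the gene lists were chosen with earlier results of these data known. All 32 members are named. In each neighbouring list the 3 largest rises and falls that passed the test are named at each time, if their mean log2 CPM reached 1, except for 1 gene that is not reported here. The alternatives were DESeq2 1.42.0 (its size factors and its Wald test), library size only, no filter, at least 10 counts in every library, the libraries of a single time, an adjusted p below 0.01, a replicate block and each library left out. After removal of group means, same-numbered DMSO and NXP800 libraries of a time correlated across genes with r between 0.159 and 0.329, and other pairs with at most 0.058. Between the times, same-numbered libraries did not (-0.127 to 0.0885), so a block within each time was added after the data were seen. The numbers in the labels are the only source of this pairing. The fits were tested on simulated counts that used the common dispersion for every gene and held no replicate pairing. That simulation cannot show how the fits behave with the uneven spread and the pairing of these libraries.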

Additional observations from a re-analysis of the deposited data

Results flagged for a closer look

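For 18 of the 32 genes the response to NXP800 at 24 h differed from that at 6 h by the test of the difference itself (edgeR's quasi-likelihood test, Benjamini-Hochberg adjusted p below 0.05). The values are the log2 fold change at 24 h minus that at 6 h. In the mevalonate section they were -1.10 for ACAT2, -0.74 for HMGCS1, -0.69 for MVK, 0.51 for PMVK, -0.84 for MVD, -0.65 for IDI1 and -0.55 for FDPS. In the rest of the sterol branch they were -0.93 for FDFT1, -0.56 for CYP51A1, -0.81 for MSMO1, -0.65 for HSD17B7, -0.61 for EBP and -1.22 for STARD4. In the fatty acid branch they were -0.30 for ACLY, -0.56 for FASN, 0.57 for ELOVL6 and -1.80 for FADS2, and among the regulators -0.59 for SREBF1. Time and library set cannot be told apart in these differences, and the DMSO mean of all 32 genes was higher at 24 h than at 6 h.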

How the results depend on the processing

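All results come from 3 libraries per group, so a single library can decide a call near the threshold. With each library left out in turn, 15 to 26 members were called at 6 h (21 in the report), 27 to 29 at 24 h (28) and 11 to 25 for the difference of the responses (18), with 11 without NXP800 6 h replicate 2 or DMSO 24 h replicate 2. At an adjusted p below 0.01 the difference was called for 8. The same changes moved the sterol median between -0.45 and -0.34 at 6 h and between -1.20 and -0.88 at 24 h, and the fatty acid median between -0.48 and -0.42 and between -0.95 and -0.69. The fatty acid median at 24 h (-0.78) was -0.68 with library size only, -0.76 with no filter and -0.76 with the 24 h libraries alone, and its replicate pairs differed by an SD of only 0.014.

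With replicate numbers blocked within each time, that median was -0.79, and 26 members were called at 6 h, 30 at 24 h and 27 for the difference. With 1 block of 3 numbers over both times, 25, 29 and 20 were called. DESeq2's Wald test called 16, 28 and 17 members.

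The sign changed for values that passed no test: TM7SF2 at 24 h (-0.04) was 0.05 with library size only and -0.29 to 0.14 with single libraries left out, SREBF1 at 6 h (0.00) was -0.08 to 0.08 with single libraries left out, and MSMO1 at 6 h (0.05) was -0.02 without DMSO 6 h replicate 3 or NXP800 6 h replicate 2. Calls of the difference were lost without any of 10 libraries for PMVK, 9 for MVK, 8 for HSD17B7, 6 for SREBF1, 6 for FASN, 4 for CYP51A1, 4 for ACLY and 2 for STARD4, with adjusted p up to 0.12 (edgeR). The cause of these changes was not tested. Library size only moved the median of all genes at 24 h to 0.086.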
